A study of Mus musculus with 4 samples.

Results

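Cycling cells, those that copy their DNA or divide, were taken from mouse back skin dermis as cells in which at least 4 of 7 proliferation genes (Mki67, Top2a, Cdk1, Birc5, Ccnb1, Cenpf and Ube2c) had at least 1 unique molecular identifier (UMI, a counted RNA molecule). Of 17130 cell barcodes, 13877 passed minima of 500 genes and 1000 UMIs with under 10% of UMIs from mitochondrial genes, and 413 of these were cycling cells. The other 13464 kept cells are called non-cycling below, although a cell with fewer detected markers may still cycle. By marker panels, 118 of the 413 were mesenchymal, 103 keratinocyte, 76 immune, 12 mural and 4 endothelial, while 94 were below the panel threshold and 6 had no clear first panel.

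The 4 libraries of hair follicle mesenchyme were made by 10x droplet sequencing of RNA 3' ends, with N = 2 per age cohort in the design text. An 18-month and a 2-month library were made with chemistry version 2 (18-month v2 and 2-month v2), and a 12-month and another 2-month library with version 3 (12-month v3 and 2-month v3). All mice had the C57BL/6J background, a tamoxifen-inducible Cre and a Cre-activated reporter, and received tamoxifen at postnatal days 3 and 4. The transgenes were α-SMACreERT2:RosaYFP in both v2 libraries and α-SMACreERT2:RosaTDTomato in both v3 libraries, by the labels. The files' eYFP entry nonetheless had UMIs in 97.8% and 100% of cycling mesenchymal cells of 12-month v3 and 2-month v3, and in 91.7% and 88.2% of those of 18-month v2 and 2-month v2. It was not confined to them: in 12-month v3 and 2-month v3 it was in 79.4% and 86.8% of cycling keratinocytes. It was also in 64.0% and 91.7% of cycling and 54.9% and 68.7% of non-cycling immune cells there. The α-smooth muscle actin promoter drives the Cre, so that cells making this actin at the time of tamoxifen, and their descendants, carry the reporter. The epidermis was removed and the dermis sorted, with 5000 cells from a reporter-positive gate and 5000 from a Cd26-positive gate, each also positive for Itga9 or Cd200. The sort and the removal of the epidermis therefore bear on every share of cells given here, keratinocytes and immune cells included. Sex went with chemistry: Xist was at 0.0991 and 0 CPM (UMIs of the gene as a share of all UMIs, on the counts-per-1e6 scale) in the 18-month v2 and 2-month v2 libraries, and at 853 and 835 CPM in the 12-month v3 and 2-month v3 libraries. The series' design text counts 12 months as young, while 12 and 18 months are here both set against 2 months as the older ages. Age was compared within a chemistry, with 1 library per age in each pair.

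A dividing cell copies its chromosomes in S phase, then separates them in mitosis. Replication genes (the MCM helicase, Pcna, nucleotide synthesis enzymes) are transcribed from late G1 into S phase, while mitotic cyclins, spindle motors and kinetochore proteins peak in G2 and mitosis. In the hair follicle, matrix keratinocytes around the papilla divide rapidly while the hair grows, and suprabasal keratinocytes leave the cycle as they differentiate. Resting dermal cells divide rarely, and the dermal sheath, a contractile layer around the follicle, holds progenitors that supply sheath and papilla.

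The promoters of 3 genes are shown because they carry both short motifs that are known from promoters of mitotic genes, the CHR (TTTGAA) and the CCAAT box. Capitals mark TTTGAA or CCAAT on the printed strand, and TTCAAA or ATTGG where the motif lies on the other strand. Cdk1 (the kinase that drives mitosis) was read at chr10:69352863-69353162 on the minus strand, Ube2c (a ubiquitin-conjugating enzyme of mitotic exit) at chr2:164769679-164769978 on the plus strand, and Ccnb2 (cyclin B2, a partner of Cdk1 outside the 7 genes) at chr9:70421505-70421804 on the minus strand. Sequences run 5′ to 3′ in the direction of the gene, from 250 bases before to 50 after its start, from RefSeq, GRCm38.p6.
Cdk1: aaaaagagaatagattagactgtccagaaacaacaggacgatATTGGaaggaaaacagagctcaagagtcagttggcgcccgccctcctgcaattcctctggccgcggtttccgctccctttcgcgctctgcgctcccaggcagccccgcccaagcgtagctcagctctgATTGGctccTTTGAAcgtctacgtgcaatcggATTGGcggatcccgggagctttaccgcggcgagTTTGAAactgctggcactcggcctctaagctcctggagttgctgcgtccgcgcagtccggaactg
Ube2c: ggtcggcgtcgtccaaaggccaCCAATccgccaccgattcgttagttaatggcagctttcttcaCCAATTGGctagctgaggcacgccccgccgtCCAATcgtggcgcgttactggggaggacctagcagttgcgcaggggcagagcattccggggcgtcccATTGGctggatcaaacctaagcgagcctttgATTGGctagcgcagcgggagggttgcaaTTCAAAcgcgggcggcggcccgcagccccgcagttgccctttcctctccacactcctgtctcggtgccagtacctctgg
Ccnb2: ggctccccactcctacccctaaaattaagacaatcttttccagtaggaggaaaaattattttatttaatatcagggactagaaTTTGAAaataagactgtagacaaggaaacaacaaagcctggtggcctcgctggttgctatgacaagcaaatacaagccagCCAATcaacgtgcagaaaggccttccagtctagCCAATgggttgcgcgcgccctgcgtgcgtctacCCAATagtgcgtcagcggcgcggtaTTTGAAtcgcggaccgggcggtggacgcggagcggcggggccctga
In Ube2c, a CCAAT and an ATTGG overlap by 2 bases. TTTGAA, on either strand, was in 5 of the 7 promoters of the genes that chose the cells, CCAAT in 6, and both in 5. Of 59 promoters of the 54 mitotic, spindle and centromere genes with an entry (67 listed), 62.7% held TTTGAA, 74.6% CCAAT and 52.5% both. Of 35 promoters of 30 replication genes (35 listed), 8.57% held TTTGAA, 54.3% CCAAT and 5.71% both. Over all 32851 promoters of the same length the shares were 17.9%, 37.4% and 6.95%. A match is a string of letters and not a measured binding site.

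Of the deposited UMIs, 21083193 were in the 18-month v2 and 17831300 in the 2-month v2 library, and 55396394 in the 12-month v3 and 77032628 in the 2-month v3 library. The v2 files held 2727 and 1906 barcodes at 18 and 2 months, against 3776 and 2604 recovered cells in the labels, so that directions in the v2 pair hold only if each file belongs to the sample it was deposited under. The v3 files held 5474 and 7023 barcodes at 12 and 2 months, against 5415 and 6998 in the labels. The v3 libraries shared 84 barcodes, the v2 libraries 7, and 2 other pairs of libraries 1 each, none of them in a cycling cell. A doublet caller marked 21 of 13877 cells, too few to be relied on, and 24 of 413 cycling cells were among the 3% of cells with the highest doublet score in their library (15.7% in 2-month v2 and 2.36% to 5.75% in the others).

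The 7 genes that chose the cells were nearly confined to them for Ube2c but not for Cenpf, a kinetochore protein made from S phase on. Cycling cells held 92.5% to 95.2% of all Ube2c UMIs of a library, and 48.3% to 67.7% of all Cenpf UMIs. Top2a, the topoisomerase that untangles replicated DNA, stood at 548 and 716 CPM in cycling cells of the 18-month v2 and 2-month v2 libraries, against 4.79 and 7.02 CPM in non-cycling cells, and at 765 and 695 CPM in cycling cells of 12-month v3 and 2-month v3, against 4.70 and 5.74 CPM. Birc5 (survivin, of the chromosomal passenger complex) was detected in 92.9% to 96.1% of cycling and 1.52% to 1.75% of non-cycling cells. Ccnb1, cyclin B1, was the least often detected of the 7 in cycling cells, at 62.9% to 70.9%. These values describe the choice and test nothing.

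Detection of several genes depends on depth, and cycling cells were deeper. Their median was 12020 (18-month v2), 11972 (2-month v2), 21977 (12-month v3) and 20015 (2-month v3) UMIs, against 6580, 6238, 11775 and 11987 UMIs in non-cycling cells. They also had more genes, with medians of 3132 to 4441 against 2221 to 3270. Mitochondrial UMIs were a smaller share, at medians of 2.50% to 2.56% in cycling cells and 2.90% to 3.26% in non-cycling cells. Just inside the threshold, 68 cells had 4 markers, with a median of 14069.5 UMIs, Birc5 in 86.8% and Ccnb1 in 25.0% of them. Just outside, 89 cells had 3 markers, with a median of 10360 UMIs, Birc5 in 53.9% and Ccnb1 in 13.5%. Of the 413 cells, 196 had all 7 markers.

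The share of cells that cycled was 3.47% in 18-month v2 (95% Clopper-Pearson interval 2.79% to 4.26%, 87 of 2506 cells) and 4.05% in 2-month v2 (3.17% to 5.09%, 70 of 1729). It was 3.11% in 12-month v3 (2.60% to 3.69%, 127 of 4087) and 2.32% in 2-month v3 (1.94% to 2.75%, 129 of 5555). The 18-month share was thus 0.858 of its 2-month share and the 12-month share 1.34 times its own, with overlapping intervals in both pairs. With every cell thinned to 3000 UMIs, the shares were 1.98% (48 of 2426) at 18 and 2.26% (39 of 1729) at 2 months in v2, and 2.00% (79 of 3947) at 12 and 1.35% (72 of 5344) at 2 months in v3. This left out 80 and 0 shallower cells in v2 and 140 and 211 in v3, in the same order. The pairs went opposite ways, and age was not tested on these shares, with 1 library per age in each pair. Intervals cover counting error only.

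Keratinocytes cycled most often of the 3 large lineages in 3 of 4 libraries. Of keratinocytes, 13.7% cycled in 18-month v2 (19 of 139, 8.43% to 20.5%) and 4.58% in 2-month v2 (12 of 262, 2.39% to 7.86%). In 12-month v3 16.7% cycled (34 of 203, 11.9% to 22.6%), and in 2-month v3 12.5% (38 of 304, 9.00% to 16.7%). Before thinning, the older interval lay above the 2-month one in v2, and the intervals overlapped in v3. In all libraries but 2-month v2 the keratinocyte interval then lay above those of mesenchymal and immune cells. Keratinocytes were 24.9% of cycling cells and 6.54% of kept cells over all libraries. The cells were assigned by panels led by Col1a1 (type I collagen), Krt14 (the keratin of basal epidermis) and Ptprc (CD45, on all white blood cells).

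**Figure D1:**
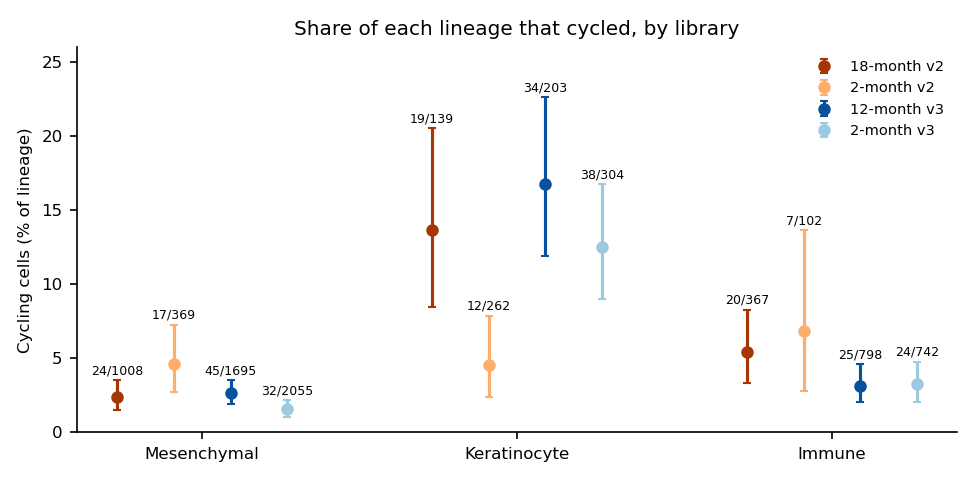
Cycling cells as a percentage of each lineage, on a linear axis, with 1 point per library and bars for 95% Clopper-Pearson intervals. Keratinocyte points run from 4.58% to 16.7%, mesenchymal points from 1.56% to 4.61% and immune points from 3.13% to 6.86%.

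Of mesenchymal cells, 2.38% cycled in 18-month v2 (24 of 1008, 1.53% to 3.52%) and 4.61% in 2-month v2 (17 of 369, 2.71% to 7.27%). The v3 shares were 2.65% at 12 months (45 of 1695, 1.94% to 3.54%) and 1.56% at 2 months (32 of 2055, 1.07% to 2.19%). As over all cells, the older share was the lower of the pair in v2 and the higher in v3, with overlapping intervals in both pairs. Of immune cells, 5.45% cycled in 18-month v2 (20 of 367) and 6.86% in 2-month v2 (7 of 102), and 3.13% in 12-month v3 (25 of 798) and 3.23% in 2-month v3 (24 of 742). Mural cells, the pericytes and smooth muscle of vessels, cycled in 5 of 218 and 7 of 229 cells at 18 and 2 months in v2. No cycling cell was among 10 and 34 mural cells at 12 and 2 months in v3, which allows shares of up to 30.0% and 8.82%.

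Depth did not run the same way in all lineages. Cycling keratinocytes had a median of 11202 UMIs in 18-month v2 and 12951 in 2-month v2, against 14029 and 26825 in non-cycling keratinocytes, and 22630 in 12-month v3 and 19998 in 2-month v3, against 17434 and 18727. Thinned to 3000 UMIs, 5.76% of keratinocytes cycled at 18 (2.52% to 11.0%) and 2.29% at 2 months (0.845% to 4.92%) in v2, and 11.6% at 12 (7.51% to 16.9%) and 6.99% at 2 months (4.32% to 10.6%) in v3. At this depth the keratinocyte intervals of the v2 pair overlapped. The 18-month v2 keratinocyte interval also overlapped those of mesenchymal (1.02% to 2.79%) and immune cells (1.33% to 5.02%), while both v3 intervals stayed above theirs. The thinned mesenchymal shares were 1.75% and 2.71% at 18 and 2 months in v2, with overlapping intervals. In v3 they were 1.96% at 12 (1.35% to 2.74%) and 0.785% at 2 months (0.45% to 1.27%), with intervals apart. Both pairs kept their order in these 2 lineages after thinning. Immune cells did not: 2.76% cycled at 18 (10 of 362) and 1.96% at 2 months (2 of 102) in v2, where the older share had been the lower, and 1.10% at 12 (8 of 729) and 2.03% at 2 months (14 of 690) in v3, with overlapping intervals in both pairs.

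Single genes could not name the lineage. Col1a1 had a UMI in 380 of the 413 cycling cells, Krt14 in 145 and Ptprc in 83, and 128 cells had both Col1a1 and Krt14. Col1a1 was also found in 82.5% and 68.0% of non-cycling keratinocytes at 18 and 2 months in v2, and in 83.4% and 93.6% at 12 and 2 months in v3, at the median depths above. Type I collagen is not a keratinocyte product, so a Col1a1 UMI alone was read as background. Krt14 had a UMI in 6.30% and 12.8% of non-cycling mesenchymal cells at 18 and 2 months in v2, and in 16.7% and 17.8% at 12 and 2 months in v3, at medians of 7664, 7027, 14374 and 14699 UMIs in the same order. Of the 94 cycling cells under the panel threshold, 52 had the mesenchymal and 38 the keratinocyte panel first. With these added, 1.86% and 3.46% of mesenchymal cells cycled at 18 and 2 months in v2, and 1.87% and 1.24% at 12 and 2 months in v3. Keratinocyte shares were then 17.2% and 6.25%, and 21.4% and 15.7%, in that order.

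Within the lineages the cycling cells were unevenly spread over subtypes, named -like since marker panels alone assign them, here without the panel threshold. Hair matrix and shaft-like cells, the keratinocytes that build the hair (markers such as Msx2, Dlx3 and Krt35), cycled in 5 of 15 cells in 18-month v2 (33.3%, 11.8% to 61.6%) and 5 of 12 in 2-month v2 (41.7%, 15.2% to 72.3%). In v3 they cycled in 21 of 31 at 12 months (67.7%, 48.6% to 83.3%) and 10 of 32 at 2 months (31.3%, 16.1% to 50.0%). Basal keratinocyte-like cells cycled in 14.3% (8 of 56) and 20.7% (6 of 29) at 18 and 2 months in v2, and in 20.5% (17 of 83) and 18.3% (20 of 109) at 12 and 2 months in v3. Suprabasal keratinocyte-like cells, which differentiate, cycled in 1 of 53, 1 of 194, 0 of 67 and 1 of 128 cells of 18-month v2, 2-month v2, 12-month v3 and 2-month v3, and 0 of 67 allows up to 4.48%. They were also deep, at medians of 23327 to 32506 UMIs. Keratinocytes that no subtype panel claimed cycled in 11 of 17 and 3 of 9 cells at 18 and 2 months in v2, and in 9 of 15 and 18 of 28 at 12 and 2 months in v3. They held 41 of the 141 cycling keratinocytes counted this way and cycled in 59.4% over all libraries (46.9% to 71.1%), beside 45.6% of hair matrix and shaft-like cells (35.0% to 56.4%).

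**Figure D2:**
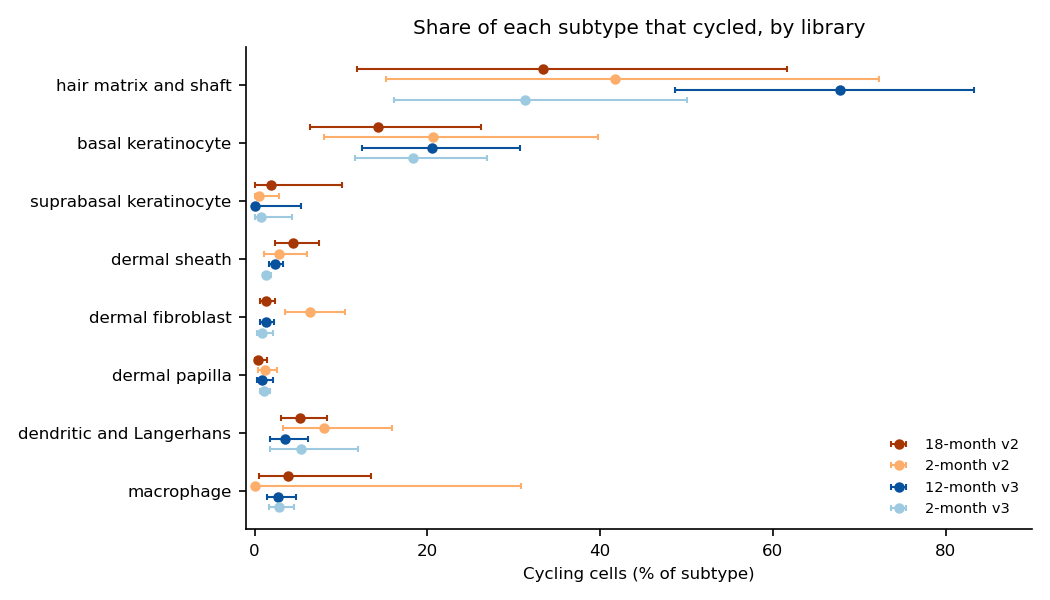
Cycling cells as a percentage of each marker-panel subtype, with 1 point per library and bars for 95% Clopper-Pearson intervals. Hair matrix and shaft-like points lie between 31.3% and 67.7%, and basal keratinocyte-like points between 14.3% and 20.7%. All dermal papilla-like points are at or under 1.22%.

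The makeup of the keratinocytes moved with the age difference. Suprabasal-like cells were 35.1% of keratinocytes in 18-month v2 and 71.3% in 2-month v2, and 30.5% in 12-month v3 and 39.4% in 2-month v3. The part of this makeup in the keratinocyte shares of cycling cells was not tested. Within basal-like cells alone, the 18-month share was below and the 12-month share above its 2-month share, with overlapping intervals in both pairs.

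In the mesenchyme, dermal sheath-like cells held most of the cycling cells in v3, at 67.3% (12 months) and 63.5% (2 months). They were also most of all v3 mesenchymal cells, at 53.5% and 58.9%. In v2 they held 43.3% of cycling and 18.1% of all mesenchymal cells at 18 months, and 18.2% and 22.3% at 2 months. They cycled in 4.45% at 18 months (13 of 292, 2.39% to 7.49%) and 2.82% at 2 months in v2 (6 of 213, 1.04% to 6.03%), and in 2.36% at 12 months (37 of 1569, 1.67% to 3.24%) and 1.34% at 2 months in v3 (33 of 2462, 0.92% to 1.88%). Both older shares were thus the higher of their pair, with overlapping intervals. In v2, dermal fibroblast-like cells cycled in 1.33% at 18 months (11 of 828, 0.66% to 2.36%). At 2 months in v2 they cycled in 6.36% (14 of 220, 3.52% to 10.4%). These intervals, from cells that were not thinned, were apart. After thinning, the v2 shares were 0.88% at 18 months (7 of 794) and 3.18% at 2 months (7 of 220). Clopper-Pearson intervals of these thinned counts overlap. In v3, fibroblast-like cells cycled in 1.26% at 12 months (11 of 870) and 0.82% at 2 months (4 of 487). Dermal papilla-like cells, the signalling centre at the follicle base, cycled in 0.41% (2 of 483) and 1.22% (6 of 491) at 18 and 2 months in v2, and 0.86% (4 of 466) and 1.07% (13 of 1212) at 12 and 2 months in v3. Over all libraries, 71 of 2652 papilla-like cells passed the panel threshold (3 of 25 cycling ones), against 3082 of 4536 sheath-like and 1950 of 2405 fibroblast-like cells. Papilla-like cells are thus nearly absent from the mesenchymal shares, ratios and age tests that use the threshold. Among immune cells, dendritic and Langerhans-like cells, which present antigen, cycled in 16 of 306 and 7 of 87 cells at 18 and 2 months in v2, and 11 of 313 and 5 of 94 at 12 and 2 months in v3. Macrophage-like cells cycled in 2 of 51 and 0 of 10 cells in v2 (0 of 10 allows up to 30.0%), and 12 of 437 and 17 of 594 cells in v3, in the same order of ages.

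Most cycling cells held more mitotic than replication transcripts. UMIs of 64 mitotic, spindle and centromere genes were set against those of 35 replication genes, none of them among the 7 that chose the cells. Replication UMIs exceeded mitotic ones in 31 of 87 cells of 18-month v2 (35.6%, 25.6% to 46.6%) and 24 of 70 of 2-month v2 (34.3%, 23.3% to 46.6%). In 12-month v3 they did in 33 of 127 (25.98%, 18.6% to 34.5%) and in 2-month v3 in 45 of 129 (34.9%, 26.7% to 43.8%). All 4 intervals overlapped. The 7 chosen genes include mitotic ones, so the rule favours cells past S phase. No cycling phase was assigned to single cells.

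Among mesenchymal cycling cells, replication UMIs were the more numerous in 25.0% (6 of 24) at 18 and 41.2% (7 of 17) at 2 months in v2, and in 13.3% (6 of 45) at 12 and 31.3% (10 of 32) at 2 months in v3. Keratinocyte shares were 47.4% and 50.0% in v2, and 29.4% and 39.5% in v3, in the same order of ages. The older share was the lower in each of these pairs, and all intervals within a pair overlapped. The age difference of this share was not tested.

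**Figure D3:**
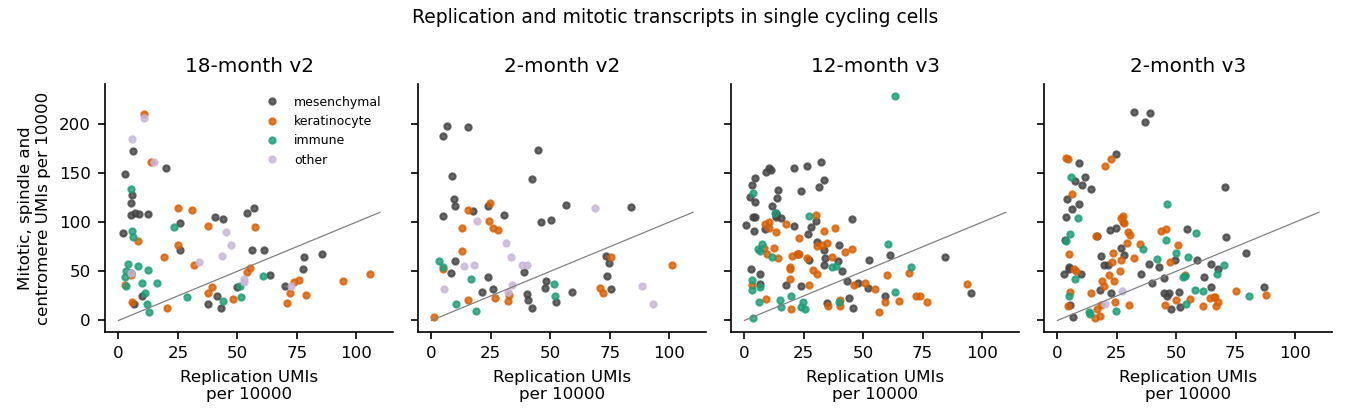
Replication UMIs per 10000 (x axis) against mitotic, spindle and centromere UMIs per 10000 (y axis) for each cycling cell, 1 panel per library, coloured by lineage as assigned without the panel threshold; the line marks equal values. Most points lie above the line, since 25.98% to 35.6% of cells in a library held more replication UMIs.

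Cycling mesenchymal cells above the panel threshold were then set beside the other such cells of their library, gene by gene, in CPM of summed UMIs. Few dermal papilla-like cells passed that threshold, as given above. Since the cells were chosen for 7 genes of this contrast, the ratios are descriptions without a test. Of 8888 genes with at least 20 UMIs in each library, 300 (3.38%) were at least 2-fold higher in cycling cells of all 4 libraries and 47 (0.529%) at least 2-fold lower. With TMM scaling (trimmed mean of M-values) the counts were 263 higher and 82 lower. The median log2 ratio of all genes was 0.09, 0.17, 0.01 and 0.02 in the order 18-month v2, 2-month v2, 12-month v3 and 2-month v3. A gene passed the UMI minimum in part through the cycling cells, so the listed genes measured here are not all genes of their lists.

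In the mesenchyme, 28 of 28 measured replication genes (35 listed) were at least 2-fold higher in every library, with library medians of 2.99 to 3.19 on the log2 scale. Tyms, thymidylate synthase, had 224 (18-month v2), 229 (2-month v2), 165 (12-month v3) and 183 (2-month v3) CPM in cycling cells, against 9.39, 13.5, 9.87 and 6.46 CPM in non-cycling cells of these libraries. Mcm5, a helicase subunit, was 10.4 to 25.4-fold higher, and Pcna, the sliding clamp of DNA polymerase, 3.57 to 7.65-fold. Of the mitotic kinase, cyclin and checkpoint list, 9 of 10 measured genes (23 listed) were at least 2-fold higher. Ccna2, cyclin A2, stood at 236, 148, 243 and 141 CPM in cycling cells, against 2.47, 3.37, 0.491 and 0.692 CPM in non-cycling cells, in the order of libraries just given. Ccnb2 had 233, 76.5, 264 and 211 CPM in cycling cells, against 3.46, 10.9, 2.09 and 1.15 CPM in non-cycling cells, and its promoter is among those printed above. The exception was Pttg1 (securin, which keeps separase inactive until anaphase), at 53.7, 32.8, 38.8 and 28.7 CPM in cycling cells, against 67.2, 55.8, 41.8 and 34.1 CPM in non-cycling cells. Its ratios, 0.799, 0.588, 0.928 and 0.842, had counting intervals that all included 1. Pttg1 was also at ratios of 1.46, 1.04, 1.06 and 0.897 in keratinocytes.

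Spindle genes (13 of 13 measured, 24 listed) and centromere genes (12 of 12 measured, 20 listed, 17 in the files) were at least 2-fold higher in every library. Cenpa, the histone that marks centromeres, was 7.66 to 77.0-fold higher, with the smallest ratio in 2-month v2. So were 18 of 18 measured chromatin genes (20 listed), with smaller ratios. H2afz, a histone variant, had 3074, 2196, 2162 and 1864 CPM in cycling cells, against 337, 387, 239 and 219 CPM in non-cycling cells. Stmn1 (stathmin, a regulator of microtubules) was 11.5 to 51.4-fold and Hmgb2, a chromatin protein, 16.8 to 21.0-fold higher. The gene with the largest smallest-library ratio was Hist1h2ap, a replication-dependent histone, at 477, 372, 932 and 559.7 CPM in cycling cells, against 0.494, 1.497, 1.27 and 1.98 CPM in non-cycling cells. The other genes chosen by that order were Mxd3, Kif23, Prc1, Nusap1, Nuf2, Sgol2a, Spc25, Tpx2 and Pbk.

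**Figure D4:**
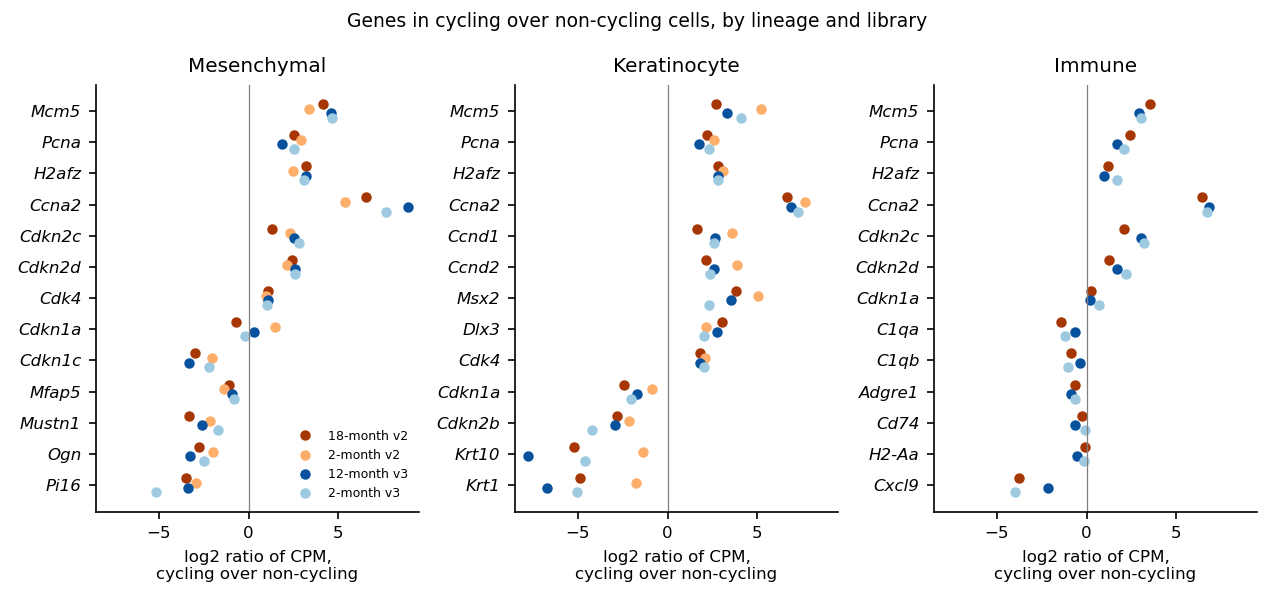
log2 ratio of CPM in cycling over non-cycling cells for named genes in mesenchymal cells, keratinocytes and immune cells, with 1 point per library; the vertical line marks equal levels. Immune points are from 3 libraries, since 2-month v2 had 7 cycling immune cells. Ccna2 lies far to the right in every lineage, and Cdkn1c to the left in mesenchymal cells.

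Genes that restrain the cycle split in the mesenchyme. Of 19 inhibitor and arrest genes, all measured, 3 were at least 2-fold higher in every library and 1 lower. The lower one, Cdkn1c (p57, an inhibitor of cyclin-dependent kinases), had 14.9, 21.9, 23.3 and 51.1 CPM in cycling cells, against 128, 100.3, 231 and 236 CPM in non-cycling cells. Its ratios were 0.117, 0.218, 0.100 and 0.217, and the groups did not overlap. The higher ones were Cdkn2c (p18, a Cdk4 and Cdk6 inhibitor), at 2.42 to 6.91-fold, Cdkn2d (p19), at 4.28 to 6.01-fold, and Rbl1 (p107, of the retinoblastoma family), at 11.1 to 21.9-fold. Cdkn1a (p21) had no common direction, with ratios of 0.608, 2.77, 1.22 and 0.877. Among D cyclins and their kinases, Cdk2 alone was at least 2-fold higher in every library (3.78 to 4.74). Cdk4 ranged from 1.98 to 2.097-fold. Ccnd1, cyclin D1, which carries growth signals to the cycle, was at ratios of 0.513, 1.43, 0.758 and 0.715.

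The other genes that were lower in cycling mesenchymal cells included markers of fibroblast types. Pi16, of a fibroblast type found across tissues, had 17.9, 16.4, 33.6 and 1.25 CPM in cycling cells, against 215, 144, 352 and 67.1 CPM in non-cycling cells. Ogn (osteoglycin, a matrix proteoglycan) had 56.7, 54.6, 38.8 and 61.1 CPM in cycling cells, against 394, 229, 372 and 338 CPM in non-cycling cells. Mustn1, a small nuclear protein of muscle and skeleton, had 17.9, 32.8, 28.4 and 49.9 CPM in cycling cells, against 192, 156, 174 and 161 CPM in non-cycling cells. The remaining genes chosen in this direction were Clec3b, Tcp11l2, Plac8, Angptl1, Pcp4 and Slfn5. None of 26 matrix genes and none of 90 measured ribosomal protein genes was at least 2-fold apart in every library, nor was any of 18 measured immediate early genes.

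Subtype makeup differed between cycling and non-cycling mesenchymal cells, so the same ratios were taken within dermal sheath-like cells, in the 3 libraries with at least 10 of them cycling (13 in 18-month v2, 37 in 12-month v3 and 33 in 2-month v3). There Cdkn1c had 0, 14.9 and 54.0 CPM in cycling cells, against 31.6, 186 and 156 CPM in non-cycling cells. Ogn had 22.5, 44.8 and 61.5 CPM, against 236, 381 and 285 CPM, and Mustn1 39.4, 31.9 and 47.7 CPM, against 385, 249 and 279 CPM. These genes were lower in cycling cells within the subtype too. Pi16 was not: it had 5.63, 3.98 and 1.26 CPM in cycling and 3.38, 5.11 and 1.53 CPM in non-cycling sheath-like cells. Cdkn2c (3.38, 6.98 and 4.73) and Cdkn2d (5.30, 3.96 and 5.76) kept ratios well above 1.

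In keratinocytes, 592 of 7036 genes (8.41%) were at least 2-fold higher in cycling cells of all 4 libraries and 326 (4.63%) lower. With TMM scaling the counts were 204 higher and 690 lower, since the median log2 ratio of all genes was 0.29, 0.47, 0.29 and 0.29 in the order 18-month v2, 2-month v2, 12-month v3 and 2-month v3. Ratios near 2-fold in keratinocytes are to be read against that shift. Differentiation genes lay far below 1. Krt10, a keratin of suprabasal cells, had 444, 11467, 46.2 and 496 CPM in cycling cells, against 16449, 30070.3, 10084 and 11782 CPM in non-cycling cells. Krtdap, a differentiation-associated secreted protein, had 227, 2823, 20.7 and 868 CPM in cycling cells, against 13686, 20538, 13103 and 17643 CPM in non-cycling cells. Lor (loricrin, of the cornified envelope) had 0, 17.6, 9.73 and 7.55 CPM in cycling cells, against 98.7, 191, 239 and 795 CPM in non-cycling cells. The genes chosen by the lowest ratios were of the same kind: Flg (filaggrin, in 1 of the 2 entries with this symbol), Hrnr, Cnfn, Wfdc5, Cdsn and Csta1, beside 2310050C09Rik, 2300005B03Rik, Agpat4 and Dnase1l3.

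Within the hair matrix and shaft list, genes went different ways. The 10 genes in the files summed to 7759 and 580 CPM in cycling cells of 18-month v2 and 2-month v2, against 724 and 391 CPM in non-cycling cells, and to 1192 and 721 CPM in cycling cells of 12-month v3 and 2-month v3, against 3628 and 4650 CPM. In 18-month v2, 1 cell held 91.3% of this sum. Krt71, a keratin of the inner root sheath, was at ratios of 17.1, 0.706, 0.128 and 0.0999 in the order 18-month v2, 2-month v2, 12-month v3 and 2-month v3. The homeobox genes Msx2 and Dlx3 were higher in cycling cells of every library. Msx2, a homeobox factor of matrix cells, had 237, 169.8, 156 and 48.1 CPM in cycling cells, against 17.0, 5.10, 13.3 and 9.82 CPM in non-cycling cells. Dlx3, another homeobox factor of the hair matrix, was 4.04 to 8.16-fold higher. Ccnd1 was 3.08 to 11.9-fold and Ccnd2 4.44 to 14.4-fold higher in cycling keratinocytes, and 4 of 6 D cyclin and kinase genes were at least 2-fold higher in every library, against 1 of 6 in mesenchymal cells. The difference between these lineages was not tested. Cdkn1a had 119, 316, 148 and 138 CPM in cycling cells, against 648, 589, 493 and 571 CPM in non-cycling cells, and its highest ratio was 0.537. Cdkn2b (p15, a Cdk4 and Cdk6 inhibitor) was at ratios of 0.123, 0.179, 0.121 and 0.0468.

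Krt14 did not follow one direction in the keratinocytes. It stood at 1476, 10500.5, 10049 and 10674 CPM in cycling cells, against 2986, 1776, 4927 and 2774 CPM in non-cycling cells, so the 18-month v2 library alone was below 1, where 1 cell held 28.1% of the UMIs of the keratinocyte panel in cycling cells. Replication genes (25 of 26 measured, 35 listed), centromere genes (8 of 8, 20 listed, 17 in the files) and chromatin genes (16 of 16, 20 listed) were at least 2-fold higher in every library. So were 6 of 8 measured mitotic kinase, cyclin and checkpoint genes (23 listed) and 5 of 5 spindle genes (24 listed). As in the mesenchyme, genes passed the UMI minimum in part through the cycling cells, so these counts are descriptions without a test. H2afz had 3209, 2483, 2617 and 2284 CPM in cycling cells, against 462, 286, 378 and 319 CPM in non-cycling cells. The genes with the largest smallest-library ratio were Nusap1, Ccna2, Cdca3, 2810417H13Rik, Ccnb2, Pbk, Cenpa, Cdca8, Tacc3 and Cdc20.

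Within basal keratinocyte-like cells (17 cycling in 12-month v3 and 20 in 2-month v3) the ratios were nearer to 1. Ccnd1 was at 1.48 and 1.77, Ccnd2 at 2.05 and 1.13 and Msx2 at 2.0998 and 2.41 in 12-month v3 and 2-month v3. Krt10 was at 0.0758 and 0.153 and Cdkn1a at 0.545 and 0.595. Of 6287 genes, 207 were at least 2-fold higher and 92 lower in both libraries. The cyclin D1 and D2 ratios over all keratinocytes were thus larger than those among basal-like cells alone.

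Immune cells gave ratios in 3 libraries. Of 8182 genes, 209 (2.55%) were at least 2-fold higher in cycling immune cells of all 3 and 36 (0.44%) lower, and with TMM scaling 153 were higher and 53 lower. All 24 measured replication genes (35 listed) and 9 of 10 measured mitotic kinase and checkpoint genes (23 listed) were at least 2-fold higher. Here too, genes passed the UMI minimum in part through the cycling cells. H2afz had 5356 (18-month v2), 3705 (12-month v3) and 2053 (2-month v3) CPM in cycling cells, against 2358, 1857 and 637 CPM in non-cycling cells of these libraries, a ratio of 2.00 to 3.22. The non-cycling level in mesenchymal cells of these libraries was 337, 239 and 219 CPM. Stmn1 was 26.6 to 27.9-fold higher.

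Complement genes of macrophages were lower in cycling immune cells in each of the 3 libraries. C1qa had 114, 1277 and 1906 CPM in cycling cells, against 309, 1998 and 4354 CPM in non-cycling cells, in the order 18-month v2, 12-month v3 and 2-month v3. C1qb was at ratios of 0.536, 0.766 and 0.483 and C1qc at 0.415, 0.552 and 0.430. H2-Aa, a class II antigen presentation gene, was at 0.948, 0.694 and 0.910. That was nearer to 1 than these complement genes in 18-month v2 and 2-month v3, but not nearer than C1qb in 12-month v3. The genes chosen by the lowest ratios were Gpnmb, Rrad, Tslp, Cxcl9, Tgm2, Asgr2, Crebl2, Aldoc, Ifit3 and Cd209f. Dendritic and Langerhans-like cells were 83.4% of immune cells in 18-month v2, 39.2% in 12-month v3 and 12.7% in 2-month v3, and the part of this makeup in the ratios was not tested.

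Age was then tested within cycling cells, on UMIs summed per library, setting the older libraries (18-month v2 and 12-month v3) against the 2-month ones, with chemistry as a covariate (edgeR's quasi-likelihood test with Benjamini-Hochberg adjustment at 0.05, without the 7 genes that chose the cells). The labels do not say whether the libraries came from different litters or days, and the fit had 1 residual degree of freedom, so p-values speak for these libraries only. In mesenchymal cycling cells 14 of 6477 genes (0.216%) were higher at the older ages and 5 (0.0772%) lower, with 350 at an unadjusted p under 0.05. In 8 of the 14 and 4 of the 5, a single cell held over 50% of the gene's UMIs in at least 1 library, of those with at least 10 UMIs of it. Without such a cell were 6 higher genes, Cyp26b1, Dcn, Irf1, Tppp3, H2-Ab1 and Anxa1, and 1 lower gene, Meg3.

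Cyp26b1, an enzyme that breaks down retinoic acid, stood at 95.4 CPM in the 18-month v2 and 21.9 CPM in the 2-month v2 library, and 252 CPM in the 12-month v3 and 21.2 CPM in the 2-month v3 library. Both older libraries were above both 2-month libraries (log2 fold 3.24 ± 0.41 SE, edgeR adjusted p = 9.49e-05). Dcn, the matrix proteoglycan decorin, stood at 3542 CPM in the 18-month v2 and 1907 CPM in the 2-month v2 library, and 1264 CPM in the 12-month v3 and 588 CPM in the 2-month v3 library (log2 fold 1.02 ± 0.18, edgeR adjusted p = 0.00428). The 12-month value was below the 2-month v2 value, so the groups overlapped across chemistries but not within them. Meg3, a long non-coding RNA, stood at 406 CPM in the 18-month v2 and 858 CPM in the 2-month v2 library, and 560.0 CPM in the 12-month v3 and 1278 CPM in the 2-month v3 library (log2 fold -1.12 ± 0.21, edgeR adjusted p = 0.0113), with both older libraries below both 2-month libraries. Non-cycling mesenchymal cells had 236 and 83.1 CPM at 18 and 2 months in v2, and 315 and 62.9 CPM at 12 and 2 months in v3 of Cyp26b1, which is the same direction. DESeq2 called Cyp26b1 (adjusted p = 0.0289) but not Dcn (adjusted p = 0.517) or Meg3 (adjusted p = 0.517). Without the 3% of cells with the highest doublet scores edgeR called 0 genes, with 268 at an unadjusted p under 0.05. Fits that left out a library also had no chemistry covariate, so they mix chemistry with the library left out. They ended the call of Cyp26b1 in 3 of 4 cases (log2 2.17 without 12-month v3). Those of Dcn (log2 0.07 without 18-month v2, 0.41 without 2-month v3, 1.58 without 12-month v3 and 2.05 without 2-month v2) and Meg3 (-1.39 to -0.75) ended in all 4. With 12-month v3 moved to the young side, where the series' design puts it, none of these 3 genes was called (adjusted p = 0.538 for Cyp26b1, 0.182 for Dcn and 0.294 for Meg3), nor without the chemistry covariate (adjusted p = 0.999 for each).

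Genes of antigen presentation were also higher in the older mesenchymal cycling cells, where 4 of 5 tested genes of the dendritic and Langerhans list passed. Of H2-Eb1, a class II chain, 1 cell held 62.2% of the UMIs in 18-month v2 and 78.6% in 12-month v3. Of H2-Ab1, another class II chain, 1 cell held 50.0% and 44.4% in these libraries. The whole immune panel of 8 genes summed to 89.5 CPM in 18-month v2 and 16.4 CPM in 2-month v2, and to 50.0 CPM in 12-month v3 and 26.2 CPM in 2-month v3. Of its 8 genes, 2, 6, 0 and 3 were at 0 in that order. A single cell held 50.0% of the panel's UMIs in 18-month v2 and 33.3% in 2-month v2. In 12-month v3 a single cell held 72.4%, and in 2-month v3 14.3%. The part of immune RNA in these calls was not tested. None of 35 replication genes, 22 mitotic kinase and checkpoint genes, 23 spindle genes or 16 centromere genes tested in mesenchymal cells was called with age by edgeR, and 4, 4, 0 and 1 of them had an unadjusted p under 0.05. Their medians were -0.24, 0.43, 0.31 and 0.15 on the log2 scale, beside a median near 0 over all genes.

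In keratinocyte cycling cells 0 of 5986 genes (0%) were higher and 6 (0.1%) lower at the older ages, with 160 at an unadjusted p under 0.05; DESeq2 called 1 higher and 9 lower. In all 6, a single cell held over 50% of the gene's UMIs in at least 1 library. Krt10 stood at 444 CPM in the 18-month v2 and 11467 CPM in the 2-month v2 library, and 46.2 CPM in the 12-month v3 and 496 CPM in the 2-month v3 library (log2 fold -4.18 ± 0.38, edgeR adjusted p = 0.00581), and 1 cell held 71.0% of its UMIs in 2-month v2 and 81.1% in 2-month v3. In fits with a library left out and no chemistry covariate, its log2 fold was -1.05 without 2-month v2 and -7.17 without 18-month v2. It was not called with 12 months counted as young (adjusted p = 0.181) or without the chemistry covariate (adjusted p = 1). Over all cycling cells, 0 of 10621 genes (0%) were higher and 13 (0.122%) lower, with 654 at an unadjusted p under 0.05; DESeq2 called 6 higher and 18 lower. Of the 13, 10 had such a cell, and the others, named after their values were seen, were Ndnf, Enpp2 and Ggct. Cycling cells of all lineages were pooled here, and the part of lineage makeup in these calls was not tested.

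A last test asked whether age went with another change in cycling than in non-cycling cells of the same lineage and library (edgeR, state by age). Its fit too had 1 residual degree of freedom, so its p-values speak for these libraries only. In the mesenchyme 18 of 10717 genes (0.168%) had a higher age difference in cycling cells and 23 (0.215%) a lower one, with 476 at an unadjusted p under 0.05. With all kept cells pooled over lineages it was 45 higher (0.316%) and 114 lower (0.8%) of 14254. The part of lineage makeup in these pooled calls was not tested. In keratinocytes it was 13 (0.133%) and 61 (0.625%) of 9764. In mesenchymal cells 4 of the 18 and 15 of the 23 had a library with over 50% of the gene's UMIs in 1 cycling cell, as did 12 of the 45 and 56 of the 114 over all lineages and 9 of the 13 and 45 of the 61 in keratinocytes. The age ratio of cycling cells had the same sign in both pairs for 11 of the 18 and 11 of the 23 mesenchymal genes.

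Cdkn2a encodes the cell cycle inhibitors p16 and p19Arf, is known as a marker of senescent cells, and showed this pattern with at most 27.3% of its UMIs in 1 cell. Cycling mesenchymal cells had 65.6 CPM in the 18-month v2 and 60.1 CPM in the 2-month v2 library, and 53.4 CPM in the 12-month v3 and 26.2 CPM in the 2-month v3 library. Non-cycling mesenchymal cells had 136 and 10.9 CPM at 18 and 2 months in v2, and 21.5 and 3.26 CPM at 12 and 2 months in v3. The log2 ratio of the older over the 2-month library was 0.09 in v2 and 1.01 in v3 in cycling cells, and 3.63 and 2.72 in non-cycling cells. The difference of the age effects was -2.26 ± 0.43 on the log2 scale (edgeR adjusted p = 9.74e-05). Of the 19 inhibitor and arrest genes tested, Cdkn2a was the 1 called, and the list median was -0.27 beside 0.04 over all genes. Cdkn2a was higher in cycling than in non-cycling cells in 3 libraries and lower in 18-month v2. It rested on 22, 11, 62 and 21 UMIs in cycling cells of 18-month v2, 2-month v2, 12-month v3 and 2-month v3. DESeq2 did not call Cdkn2a (adjusted p = 0.865). Nor did edgeR in fits without the chemistry covariate that also left out 18-month v2 (log2 -1.40) or 2-month v3 (log2 -2.005). It was not called with 12 months counted as young (adjusted p = 0.106) or without the chemistry covariate (adjusted p = 0.51). Without 12-month v3 and the chemistry covariate the log2 difference was -3.83.

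**Figure D5:**
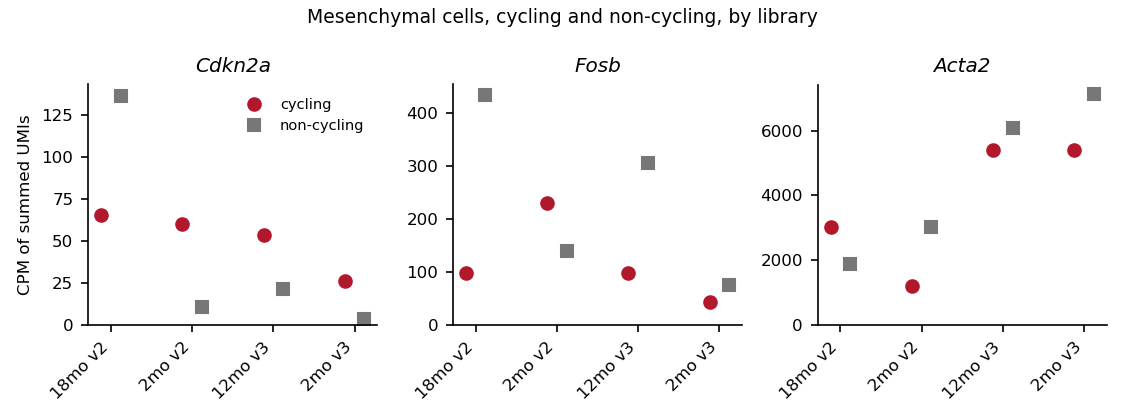
CPM of summed UMIs for named genes in cycling (circles) and non-cycling (squares) mesenchymal cells of each library, 1 panel per gene with its own linear axis from 0. Cdkn2a in non-cycling cells is at 136 CPM in 18-month v2, against 10.9 CPM in 2-month v2, while the cycling values are 65.6 and 60.1 CPM.

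Acta2, the smooth muscle actin of the dermal sheath, went the other way. Cycling mesenchymal cells had 3026 CPM in the 18-month v2 and 1196 CPM in the 2-month v2 library, and 5392 CPM in the 12-month v3 and 5412 CPM in the 2-month v3 library. Non-cycling ones had 1876 and 3024 CPM at 18 and 2 months in v2, and 6073 and 7132 CPM at 12 and 2 months in v3. The difference of the age effects was 1.14 ± 0.18 (edgeR adjusted p = 1.08e-06). In v3 the cycling values were nearly level. Dermal sheath genes were called higher in 3 of 12 tested (Acta2, Stmn2 and Col11a1), with a list median of 0.64 beside 0.04 over all genes. Sheath-like cells were 13 of 30 cycling mesenchymal cells at 18 and 6 of 33 at 2 months in v2, and 37 of 55 at 12 and 33 of 52 at 2 months in v3, counted without the panel threshold. The part of this makeup was not tested. DESeq2 did not call Acta2 (adjusted p = 1), nor did edgeR without both 18-month v2 and the chemistry covariate (log2 0.78). With all libraries kept, Acta2 was not called without the chemistry covariate either (adjusted p = 0.36), and with 12 months counted as young the log2 difference was 2.17. In fits that also had no chemistry covariate, the log2 difference was 0.61 without 2-month v2 and 1.75 without 2-month v3.

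Immediate early genes, which cells switch on within minutes of a stimulus, were called lower in 3 of 19 tested (Fosb, Nr4a1 and Egr1), with a list median of -0.70. Fosb in cycling mesenchymal cells stood at 98.4 CPM in the 18-month v2 and 229 CPM in the 2-month v2 library, and 97.4 CPM in the 12-month v3 and 43.6 CPM in the 2-month v3 library. In non-cycling cells it stood at 434 and 139 CPM at 18 and 2 months in v2, and 305 and 76.1 CPM at 12 and 2 months in v3. Fosb was lower in cycling than in non-cycling cells of 3 libraries and higher in 2-month v2. The difference was -1.69 ± 0.30 (edgeR adjusted p = 2.38e-05). Fosb was not called by DESeq2 (adjusted p = 1), nor with all libraries but no chemistry covariate (adjusted p = 0.177). Fits with a library left out also had no chemistry covariate. They did not call it without 2-month v2 (log2 -1.06) or without 18-month v2 (log2 -1.49). With 12 months counted as young the log2 difference was -2.72.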

How the data were processed

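RNA 3' ends of single cells were sequenced in 4 10x libraries. The deposited matrices hold raw UMI counts (whole numbers) for each gene in each barcode. STAR, Cell Ranger 2.0.1 and Seurat 2.1.0, and builds mm10 and GRCm38.p5, are named in the submitters' processing notes without roles, and the v3 matrix headers name software version 3.0.1.

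Members, gene lists and tests were chosen with earlier results of these data known. A lineage is the panel with the highest share of a cell's UMIs relative to its top 50 cells, with at least 5 UMIs of at least 2 genes and a relative level of at least 0.05, and the next panel under 0.5 of the first. Within a lineage, the subtype was the panel with the highest relative share, also at a level of at least 0.05. The minimum of 5 UMIs and 2 genes and the limit on the next panel were not applied to subtypes. CPM ratios used UMIs summed per library, lineage and state, with at least 10 cycling cells and 20 UMIs, and 95% conditional Poisson intervals. Age tests used edgeR 4.0.16 with TMM and its default filter, with DESeq2 1.42.0 as an alternative (R 4.3.3), after a check on simulated data. Of simulated 4-fold changes, the age test recovered 81.8% to 83.8% and the state by age test 37.5% to 45.5%. In mesenchymal cells 13 and 8 other genes were falsely called in these tests. The simulation gave all genes the same dispersion (spread beyond counting error), 0.05. It drew sums per library, so genes with most UMIs in a single cell were not simulated. An SE is the size of a log2 fold over the root of its F statistic. Doublets were scored with Scrublet in scanpy 1.11.5 and not removed, and thinning used scipy 1.17.1 and numpy 2.4.6 (Python 3.11.15). Depth is given per library in the report.

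Named were the 7 chosen genes, members of the lists and panels, the 10 genes outside both with the largest smallest-library ratio and the 10 with the smallest largest-library ratio, and up to 10 called genes per direction by p in the age tests. Alternatives changed the marker minimum, the mitochondrial limit, doublets, depth, the panel threshold, the scaling, the filters, the tool and the libraries used.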

Additional observations from a re-analysis of the deposited data

Results flagged for a closer look

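The share of cells that cycled differed between ages in opposite ways in the pairs: the 18-month v2 share was 0.858 of the 2-month v2 share, and the 12-month v3 share 1.34 times the 2-month v3 share. Under other settings the ratios were 0.799 to 0.959 and 1.31 to 1.49. The difference between the pairs was not tested, and age, chemistry, sex and labelled reporter cannot be told apart across them.

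In mesenchymal cells, a test of the difference itself set the age effect of cycling cells against that of non-cycling cells. It gave 1.14 on the log2 scale for Acta2 and -2.26 for Cdkn2a, each with the values per library in the report. Neither was called by DESeq2 or without the chemistry covariate, and Cdkn2a was not with 12 months counted as young.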

How the results depend on the processing

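The mean share over libraries of cycling cells assigned to a lineage was 28.0% mesenchymal, 23.8% keratinocyte and 17.8% immune. Without the panel threshold, chosen after seeing the data, it was 41.3% mesenchymal and 32.7% keratinocyte, with the single gene Krt14 as marker 11.7% keratinocyte, and with at least 5 markers 14.3% immune. Counts of genes at least 2-fold higher and lower depended on what was tested. In mesenchymal cells they were 139 and 28 with at least 50 UMIs, 133 and 26 in thinned cells, 82 lower with TMM, 139 lower without the panel threshold and 86 lower in dermal sheath-like cells alone. In keratinocytes they were 371 higher against cells with 0 of 7 markers, 232 and 110 with single genes, 204 and 690 with TMM, 322 higher with at least 50 UMIs, 298 higher in thinned cells, and 207 and 92 in basal-like cells alone. In immune cells they were 86 and 14 with at least 50 UMIs, and 354 and 100 in thinned cells, over 2 libraries. Thinned, sheath-like and basal-like values were added after seeing the data.

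Genes called with age in cycling cells (13 over all, 19 mesenchymal, 6 keratinocyte) were 24, 4 and 10 with DESeq2, 270, 60 and 89 with no filter beyond 1 UMI, 0, 0 and 0 with no chemistry covariate (158, 67 and 92 at an unadjusted p under 0.05), 38, 35 and 66 with 12 months counted as young, and 6, 11 and 0 with at least 3 markers. Over all cells they were 45 with RLE size factors, and without the 3% highest doublet scores 0 mesenchymal and 2 keratinocyte. Genes with another age effect in cycling cells (159, 41 and 74) were 24, 0 and 22 with DESeq2 (71 mesenchymal at an unadjusted p under 0.05) and 1, 5 and 8 with no chemistry covariate. They were 6 over all with 12 months counted as young, 15 in keratinocytes with at least 3 markers, and 85 mesenchymal and 127 keratinocyte without the panel threshold.

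Leaving out each library gave 322 to 461 higher and 69 to 153 lower genes in mesenchymal cells, 699 to 936 and 354 to 489 in keratinocytes, and 344 to 430 and 147 to 211 in immune cells, since fewer libraries had to pass. The age tests that left out a library also had no chemistry covariate, so their values mix the chemistries. Genes called with age were 0 to 9 over all, 0 to 24 mesenchymal and 0 to 121 keratinocyte, and of the difference 8 to 487, 21 to 131 and 18 to 97. Cxcl2 with age in mesenchymal cells ranged from -9.67 to 2.54 on the log2 scale, positive without 2-month v3 (adjusted p = 0.941), and the age difference of Krt35 in keratinocytes from -1.37 to 7.86, negative without 12-month v3 (adjusted p = 1); the cause was not tested. Of 111 ratios of named genes with a log2 size of at least 1, all 1133 values under the alternatives kept their sign, while 188 of 384 values of age tests of named genes kept their side of the threshold. No paired analysis was possible because the ages share fewer than 2 replicate numbers in the labels; the pairs of libraries by chemistry entered the fits as the chemistry covariate. Numbers of cycling mesenchymal, keratinocyte or immune cells per library, from 7 to 45, limit every value.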
